A study of Homo sapiens with 3 samples.

Results

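Semaphorins are guidance proteins that share an extracellular sema domain and signal mainly through plexin receptors on neighbouring cells. Those of class 3 are secreted and need a neuropilin co-receptor to reach most plexins, whereas those of classes 4, 5 and 6 span the membrane and SEMA7A, of class 7, is held by a lipid (GPI) anchor, and these bind their plexins without a neuropilin in most known cases. Besides steering axons they act in immune cells and epithelia, and several also signal backwards through their own cytoplasmic tails. The 10 genes described here are SEMA4A, SEMA4B, SEMA4C, SEMA4F, SEMA4G, SEMA5A, SEMA5B, SEMA6B, SEMA6C and SEMA7A, chosen by name. They are 10 of the 13 genes of classes 4 to 7, and of 58302 genes in all, in the files. Each was found once, by its Ensembl identifier.

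The cells were C4-2, an established human prostate adenocarcinoma line of the LNCaP lineage, labelled wild type, with no treatment given in the labels. The 3 libraries formed 1 group, named here by replicate number, and held 47513470 to 51200272 reads assigned to genes. Nothing stated whether they came from separate cultures, so the p-values speak only to differences among these 3 libraries, which could be technical. The neuroendocrine cells and the neuropilin-2 knockdown of the series were not analysed here, so no 2 conditions are compared. Of the luminal prostate markers 10 of 10 were detected, with a summed level of 4192 to 4247 TPM. The sums were far lower for the other marker lists, though each had detected members: 18.1 to 19.4 TPM for neuroendocrine markers (6 of 8 detected), 17.4 to 18.4 for neuron and glia markers (3 of 5), 14.9 to 15.4 for fibroblast and endothelial markers (3 of 7), 1.63 to 2.55 for blood cell markers (1 of 6) and 1.01 to 1.31 for basal markers (2 of 4). Among them COL1A1 had 10.2 ± 0.392 TPM and VWF 3.68 ± 0.191, whereas TP63, KRT5, COL1A2, CD3E and HBB had 0 reads in every library. TPM is a read count divided by exon length and by the library's total of such values. The exon length used is that of all annotated exons of a gene merged, not that of the transcripts expressed. Levels compared between genes therefore depend on the annotation. Detection here means 10 or more reads in each of the 3 libraries.

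Expression of these semaphorins was led by class 4 and nearly absent for class 5. Of the 10 genes 8 were detected and 7 had a mean of at least 1 TPM. Among all 19708 protein-coding genes, 71.8% were detected and 62.7% reached 1 TPM, so neither count set the semaphorins apart. Their median level was 1.66 ± 0.19 on the log2(TPM + 0.1) scale (SD, n = 3 libraries), against 2.46 ± 0.03 for all protein-coding genes. The 8 detected genes had a median of 2.20 ± 0.03, against 3.99 ± 0.04 for detected protein-coding genes. Summed over the 10 genes, the level was 67.6 to 70.7 TPM per library.

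**Figure D1:**
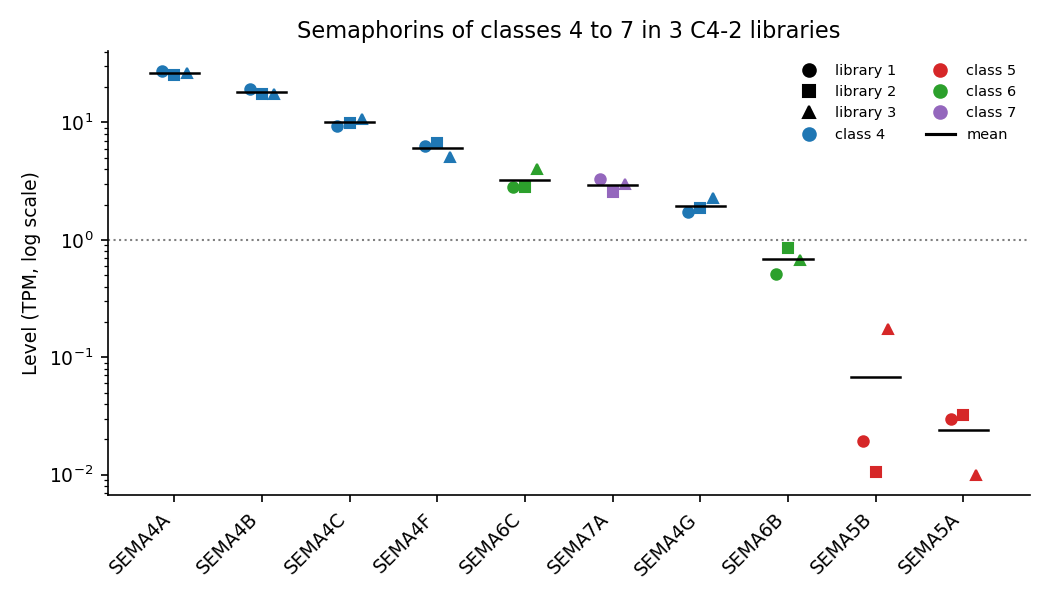
Level of each of the 10 semaphorins in TPM (log axis) in each of 3 C4-2 libraries, with marker shape for the library, colour for the class, a bar at the mean and a dotted line at 1 TPM. SEMA4A leads at 26.5 TPM, 7 genes have means above the line, and both class 5 genes lie below 0.2 TPM in every library.

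SEMA4A, a class 4 semaphorin known from T cell priming that binds B-type plexins and plexin D1, was the highest. It lies on chromosome 1 (156147366 to 156177752, plus strand, GRCh38), and it had 3146, 2660 and 3031 reads in libraries 1, 2 and 3. That is 27.5, 25.3 and 26.6 TPM, with a mean of 26.5 ± 1.08 (SD, n = 3), above 74.0% of protein-coding genes. SEMA4A alone made up 38.1% of the summed TPM of the 10 genes.

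SEMA4B, whose cytoplasmic tail ends in a motif that binds PDZ proteins, followed on chromosome 15 (90160604 to 90229679, plus strand). It had 19.2, 17.5 and 17.5 TPM in libraries 1, 2 and 3, from 2262, 1893 and 2053 reads. Its highest value, 19.2, lay below the lowest of SEMA4A, 25.3. SEMA4A exceeded it by 0.55 ± 0.05 log2 units within a library, in 3 of 3 libraries. SEMA4B held 26.0% of the summed TPM, so the leading pair accounted for most of it.

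SEMA4C, a ligand of plexin B2, lies on chromosome 2 (96859716 to 96870757, minus strand). Its level was 9.26, 9.96 and 10.8 TPM in libraries 1, 2 and 3, from 957, 944 and 1108 reads. SEMA4F, a class 4 member linked by earlier work to nerve growth around prostate tumours, also lies on chromosome 2 (74654228 to 74683853, plus strand). It had 6.28, 6.67 and 5.09 TPM, from 657, 640 and 529 reads. The ranges of the 2 genes did not overlap, and library 3 was the highest of the libraries for SEMA4C and the lowest for SEMA4F. SEMA4F sat close to the middle of the protein-coding genes, at the 51.1st percentile, and SEMA4C a little higher, at the 57.1st.

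SEMA4G, which binds plexin B2 in the mouse cerebellum, was the lowest of the class 4 genes described here. It had 1.73, 1.85 and 2.28 TPM, from 153, 150 and 200 reads. Library 3 was highest. SEMA4G lies on chromosome 10 (100969518 to 100985871, plus strand) and shares 1441 of its 5253 exon bases (27.4%) with other genes, 1170 of them with MRPL43, a mitochondrial ribosomal protein gene on the opposite strand. MRPL43 had 1983, 1673 and 1949 reads. The counting options recorded in the files use no strand, and under them a read that touches exons of both genes is given to neither, so SEMA4G may be undercounted. A read from the opposite strand that touches exons of SEMA4G alone is given to SEMA4G, so it may also be overcounted. Neither was tested. With the shared bases left out of the length the mean of SEMA4G was 2.57 TPM, in place of 1.96. The 5 class 4 genes together held 89.98 ± 1.11% of the summed TPM of the 10 genes.

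In this set class 6, with 2 of its 4 genes, and class 7 were represented by low but detected transcripts. SEMA6A, a class 6 gene outside the set, was higher, at 11.3 ± 0.46 TPM. SEMA6C, a ligand of plexin A1 in the mouse, lies on chromosome 1 (151131685 to 151146664, minus strand). It had 277, 254 and 393 reads, or 2.84, 2.84 and 4.05 TPM in libraries 1, 2 and 3. Library 3 stood apart from the other 2, which had nearly the same value. SEMA6B, a ligand of plexin A4 in the mouse whose tail can bind the SRC kinase, lies on chromosome 19 (4542593 to 4559808, minus strand). It had 38, 58 and 50 reads, or 0.513, 0.854 and 0.679 TPM. It was detected but below 1 TPM in every library.

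SEMA7A, the GPI-anchored member that binds plexin C1 and beta-1 integrins, lies on chromosome 15 (74409289 to 74434467, minus strand). Its level was 3.30, 2.53 and 3.02 TPM in libraries 1, 2 and 3, from 239, 168 and 217 reads, with library 2 the lowest. The range of SEMA7A overlapped that of SEMA6C. The 2 genes differed by 0.12 ± 0.31 log2 units (SEMA6C minus SEMA7A), and SEMA6C was higher in 2 of 3 libraries, so their order was not separated from the spread between libraries.

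Class 5 semaphorins carry thrombospondin repeats beside the sema domain and are known as guidance cues with both attractive and repulsive effects. SEMA5A, a ligand of plexin B3, had 6, 6 and 2 reads in libraries 1, 2 and 3. Its level was 0.0295, 0.0322 and 0.00990 TPM. The exact 95% Poisson interval for its highest library reached 0.0701 TPM, which covers counting error only and takes each read as independent. SEMA5A lies on chromosome 5 (9035026 to 9546075, minus strand) and has the longest exon sequence of the 10 genes, at 12097 bases, of which 436 are shared with an opposite-strand long non-coding RNA gene that had 0 reads.

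SEMA5B, which acts with SEMA5A in the mouse retina through plexins A1 and A3, had 2, 1 and 18 reads. Its level was 0.0191, 0.0104 and 0.173 TPM in libraries 1, 2 and 3. Nearly all of its reads came from library 3. With each read taken as independent, the exact 95% Poisson interval there was 0.103 to 0.274 TPM. The upper bounds in libraries 1 and 2 were lower, at 0.0691 and 0.0581 TPM. Should the reads be paired and each mate counted on its own, the intervals of both class 5 genes would be wider. Whether those of SEMA5B would then still lie apart was not tested. SEMA5B lies on chromosome 3 (122909193 to 123028605, minus strand). Neither class 5 gene was called detected, and together they held 0.131 ± 0.112% of the summed TPM.

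**Figure D2:**
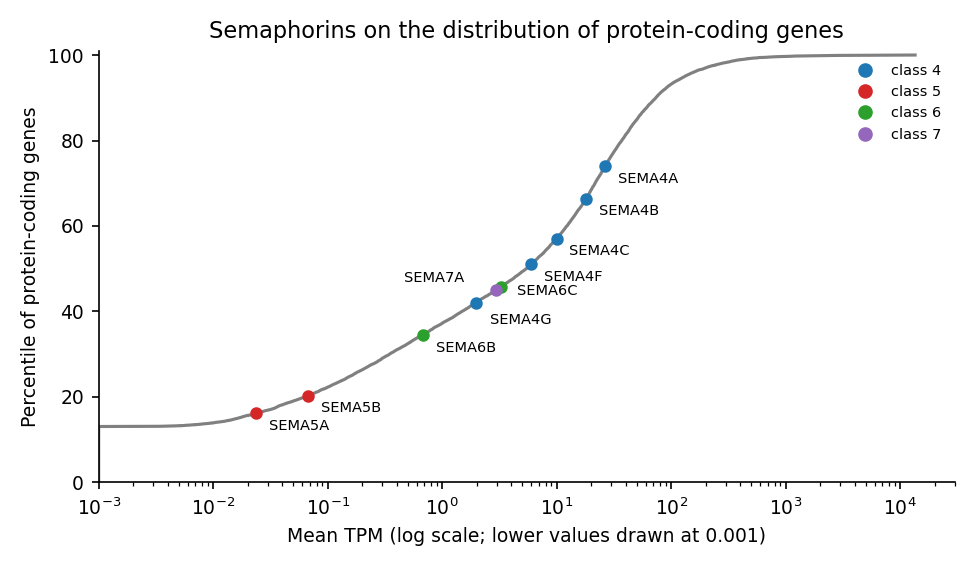
Mean TPM of the 10 semaphorins (log axis) against their percentile among 19708 protein-coding genes, drawn on the cumulative distribution of those genes, with colour for the class. The genes spread from the 16.2nd percentile for SEMA5A to the 74.0th for SEMA4A.

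From high to low the order of mean level was SEMA4A, SEMA4B, SEMA4C, SEMA4F, SEMA6C, SEMA7A, SEMA4G, SEMA6B, SEMA5B and SEMA5A. Of the 9 neighbouring pairs in this order, 2 had ranges over the 3 libraries that overlapped, SEMA6C with SEMA7A and SEMA5B with SEMA5A. SEMA5B was above SEMA5A in 1 of 3 libraries only, library 3. Without library 3 the order within both pairs turned round, and 1 pair overlapped. The widest step between detected neighbours was from SEMA4G to SEMA6B, at 1.41 ± 0.32 log2 units (SEMA4G minus SEMA6B).

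The base composition at the start sites varied widely among these genes. The RefSeq promoter table (GRCh38.p14) gave 18 windows for 9 of the 10 genes, each from 250 bases before to 50 bases after a start. No window of SEMA6B was used here. The 250 bases before the most upstream listed start are shown for SEMA4B and SEMA4C, from the upper part of the order, and for SEMA5A and SEMA5B, at its lower end. Capitals mark the GC box, GGGCGG read on either strand, a motif bound by SP1-type factors.
SEMA4B: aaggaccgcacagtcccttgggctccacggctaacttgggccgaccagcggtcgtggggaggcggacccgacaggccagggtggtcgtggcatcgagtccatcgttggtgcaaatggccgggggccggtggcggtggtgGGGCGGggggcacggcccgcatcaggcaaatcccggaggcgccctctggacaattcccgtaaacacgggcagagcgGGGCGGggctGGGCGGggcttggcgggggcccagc
SEMA4C: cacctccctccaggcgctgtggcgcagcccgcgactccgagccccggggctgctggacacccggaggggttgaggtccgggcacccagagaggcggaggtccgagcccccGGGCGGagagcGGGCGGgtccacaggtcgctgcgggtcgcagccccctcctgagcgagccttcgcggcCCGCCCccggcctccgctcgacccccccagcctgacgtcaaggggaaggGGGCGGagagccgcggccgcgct
SEMA5A: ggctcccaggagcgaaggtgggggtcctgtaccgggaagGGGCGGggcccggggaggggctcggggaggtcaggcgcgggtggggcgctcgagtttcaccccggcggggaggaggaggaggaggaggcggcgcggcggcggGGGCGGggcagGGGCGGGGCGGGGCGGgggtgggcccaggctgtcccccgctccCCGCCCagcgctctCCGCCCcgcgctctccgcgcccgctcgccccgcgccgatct
SEMA5B: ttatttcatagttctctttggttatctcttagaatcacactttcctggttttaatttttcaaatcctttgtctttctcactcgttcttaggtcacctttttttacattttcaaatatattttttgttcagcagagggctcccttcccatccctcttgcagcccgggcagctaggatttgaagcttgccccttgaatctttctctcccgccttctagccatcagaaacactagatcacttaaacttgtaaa
They lie, in the same order, at chr15:90184670-90184919 on the plus strand, chr2:96870081-96870330 on the minus strand, chr5:9546076-9546325 on the minus strand and chr3:123028606-123028855 on the minus strand.

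The stretch before SEMA5A, the gene with the lowest mean level, held 33 CpG pairs and 7 GC boxes, counted with overlaps, at a GC content of 82.0%. The stretch before SEMA4C held 30 CpG pairs and 4 GC boxes, and that before SEMA4B 24 and 3. The stretch before SEMA5B held 3 CpG pairs and no GC box, at a GC content of 39.2%, whereas the window at another of its 3 listed starts held 32 CpG pairs over 300 bases. All 4 windows of SEMA4A, the highest gene, were poor in CpG. Their ratio of observed to expected CpG pairs was 0.147 to 0.367, against a median of 0.579 over 35116 windows of all genes and 0.816 for the window of SEMA5A. With 9 genes this is a description only. SEMA5A had the lowest mean because of library 3, without which SEMA5B was lower. In the annotation used for counting, SEMA4A begins upstream of all 4 of its windows, and SEMA4B, SEMA4C and SEMA7A also begin upstream of theirs. Starts there were not examined. SEMA4B begins at 90160604, whereas its most upstream window begins at 90184670, so the stretch shown does not lie before the annotated gene.

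A GC box was present in 11 of the 18 windows, against 44.95% of all windows. Each of the 9 genes had it in at least 1 window, but several have more than 1 window, and no share over all genes was computed. The E-box CACCTG was present in 3 windows of 2 genes, SEMA4A and SEMA4F, against 20.6% of all windows. Neither the TATA box TATAAA, found in 11.5% of all windows, nor AGAACA, a half-site of the androgen response element found in 14.8%, was present in any of the 18. Both strands were read for each motif, and some windows of SEMA4A and of SEMA7A overlap each other. The absence of these letters from these windows says nothing of more distant sites.

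The 10 genes made up 36.8 ± 0.76% of the summed TPM of the 20 semaphorin genes measured. The secreted class 3 genes, led by SEMA3C, held 50.2 ± 0.66%. SEMA4A, at 26.5 ± 1.08 TPM, was the highest in TPM of the 13 genes of classes 4 to 7. In reads it was not the highest in library 2, with 2660 against 2773 for SEMA4D. The merged exons of SEMA4D are longer, at 14160 bases against 6822 for SEMA4A. The TPM range of SEMA4A overlapped that of SEMA3F (23.0 to 26.5 TPM). SEMA4D, a plexin B1 ligand, and SEMA6A, outside the set described here, had 12.4 ± 0.46 and 11.3 ± 0.46 TPM, between the means of SEMA4B and SEMA4C. The lowest library of SEMA6A, at 10.75 TPM, lay just under the highest of SEMA4C, at 10.78. SEMA6D had 0.860 ± 0.249 TPM, with a range of 0.668 to 1.14 that overlapped that of SEMA6B. SEMA3G and SEMA3B had 8.44 ± 0.81 and 6.60 ± 0.72 TPM. SEMA3A, SEMA3D and SEMA3E lay at 0.162 ± 0.104, 0.0792 ± 0.0991 and 0.0487 ± 0.0448 TPM, each below the lowest library of SEMA6B, 0.513 TPM.

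**Figure D3:**
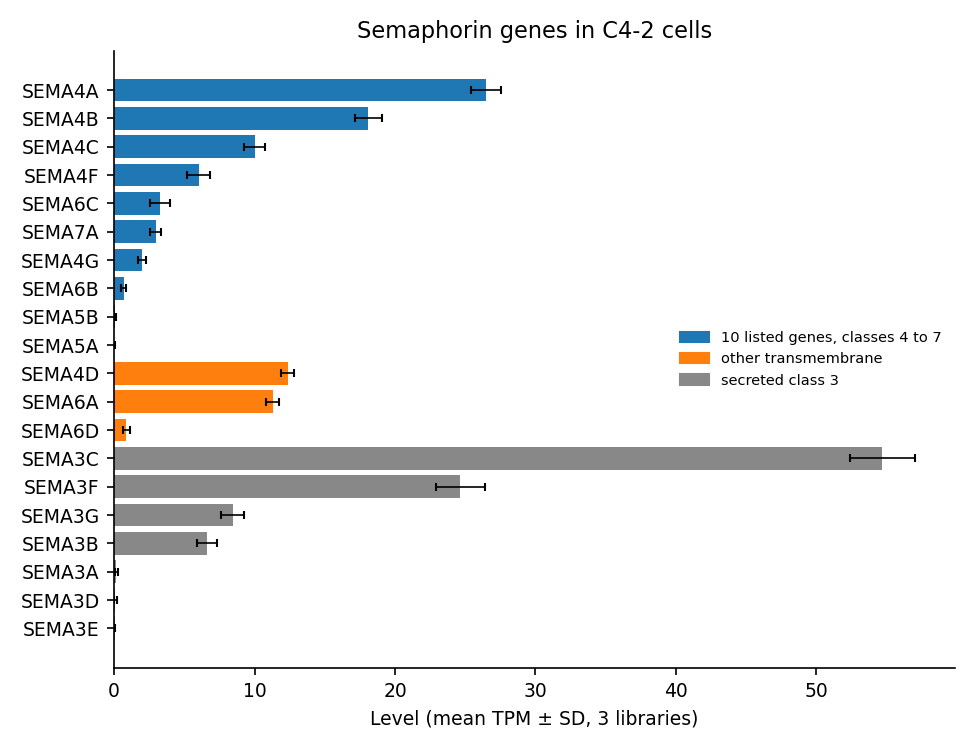
Mean TPM (linear axis from 0) of the 10 semaphorins of classes 4 to 7, of 3 other transmembrane semaphorins and of 7 secreted class 3 semaphorins, with error bars of 1 SD over 3 libraries. SEMA3C is the longest bar, at 54.7 TPM, and SEMA4A the longest of the membrane-bound genes.

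Each semaphorin was next set against plexins or integrins known to bind it, in 11 pairs that cover 8 of the 10 genes. The semaphorin lay above its receptor in 4 pairs and below it in 7, with the same sign in all 3 libraries for every pair. Over 3 libraries the exact sign-flip permutation test, two-sided, cannot give a p below 0.25. It gave 0.25 for each of the 11 pairs, also after Benjamini-Hochberg adjustment over the pairs. The differences below are semaphorin minus receptor on the log2(TPM + 0.1) scale.

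The receptors paired with SEMA4A, PLXND1 and PLXNB1, were both lower than it, whereas the other B-type plexins, not paired with it, were higher, PLXNB2 at 241 ± 5.54 TPM and PLXNB3 at 33.7 ± 1.36. SEMA4A at 26.5 ± 1.08 TPM stood against PLXND1 at 0.988 ± 0.0338 TPM, a difference of 4.61 ± 0.04 log2 units or 24.4-fold, which with a pseudocount of 1 was 3.79 log2 units. Against PLXNB1 at 17.4 ± 0.741 TPM the difference was 0.60 ± 0.11 log2 units or 1.51-fold. The ranges of SEMA4A and PLXNB1 did not overlap, and SEMA4A was higher in 3 of 3 libraries. SEMA7A at 2.95 ± 0.390 TPM exceeded PLXNC1 at 1.08 ± 0.294 TPM by 1.39 ± 0.28 log2 units. SEMA6B at 0.682 ± 0.170 TPM exceeded PLXNA4, which had 4, 12 and 12 reads (0.0353 ± 0.0181 TPM) and was not called detected.

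The other 7 pairs had the receptor in excess. PLXNB2 was the most abundant plexin and exceeded both of its class 4 ligands listed. For SEMA4C, at 9.997 ± 0.761 TPM, the difference was −4.58 ± 0.11 log2 units, and for SEMA4G, at 1.96 ± 0.287 TPM, it was −6.88 ± 0.19. The SEMA6C difference from PLXNA1 (40.9 ± 1.83 TPM) was −3.63 ± 0.29 log2 units. SEMA7A lay far below its integrin partner ITGB1 (123 ± 8.69 TPM), at −5.34 ± 0.27 log2 units, though above its plexin. PLXNB3, the receptor paired with SEMA5A, has 20.4% of its exon bases shared with another gene. PLXNA1 and PLXNA3 were paired with SEMA5B alone, although they also serve SEMA5A in the mouse, and PLXNA3 had 15.6 ± 0.416 TPM. The class 5 levels lie near or below the pseudocount of 0.1, so the size of their differences depends on it. These class 5 receptors were thus transcribed in cells whose SEMA5A and SEMA5B reads numbered at most 18 in any library. PLXNA2, which is in no pair, had 0.916 ± 0.131 TPM.

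**Figure D4:**
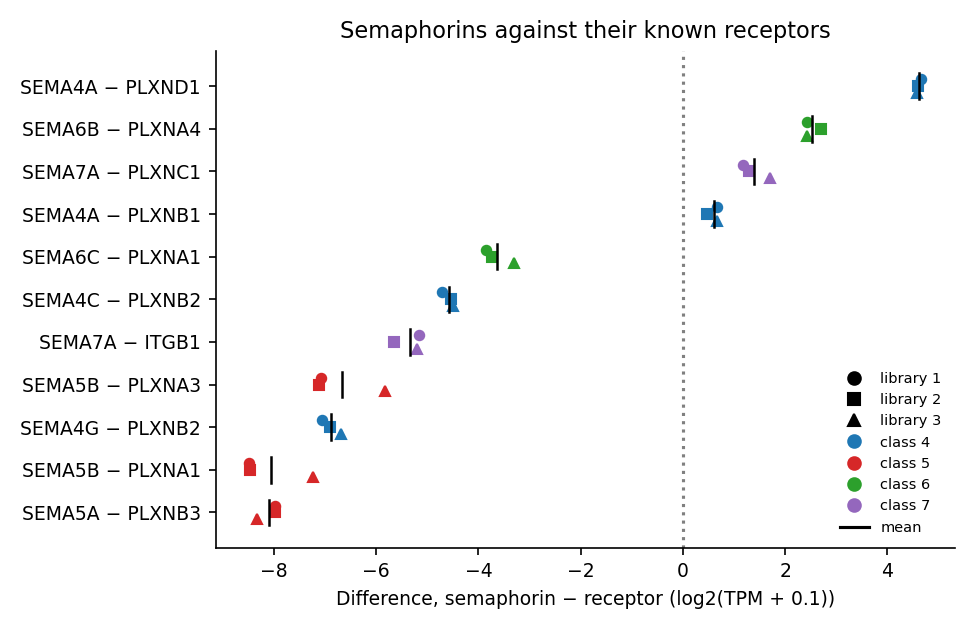
Difference between each semaphorin and a receptor known to bind it, as log2(TPM + 0.1) of the semaphorin minus that of the receptor, in each of 3 libraries (marker shape), with colour for the semaphorin class and a bar at the mean. In 4 pairs all points lie right of 0 and in 7 all lie left of it, from −8.10 for SEMA5A and PLXNB3, a size that the pseudocount sets (−5.08 with a pseudocount of 1), to 4.61 for SEMA4A and PLXND1.

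Of 9 plexins 8 were detected and 6 reached 1 TPM, and of 11 other receptors and partners 8 were detected and 4 reached 1 TPM. The shares among all protein-coding genes were 71.8% and 62.7%. The highest of the other receptors were ITGB1, the receptor kinase gene ERBB2, which associates with B-type plexins, at 63.2 ± 1.02 TPM and NRP1 at 13.1 ± 0.563. CD72, a lymphocyte receptor of class 4 semaphorins, had 4, 7 and 5 reads, and TREM2 and KDR had 0 reads in every library. These 3 were named after their values were seen.

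Of 18 plexin effectors 17 were detected, led by the small GTPase genes RHOA at 365 ± 24.0 TPM and RAC1 at 213 ± 3.04 and by GIPC1, whose product binds plexin tails, at 136 ± 2.52. The exception was RND1, with 12, 2 and 10 reads, named after its values were seen. All 15 genes of the cytoskeletal response were detected, led by the cofilin gene CFL1 at 316 ± 9.71 TPM, the LIM kinase gene LIMK1 at 81.0 ± 2.82 and the oxidoreductase gene MICAL1 at 73.4 ± 0.273. All 7 proteases that cleave semaphorins or plexins were detected, led by FURIN at 39.4 ± 2.40 TPM, ADAM10 at 27.0 ± 1.44 and PCSK7 at 11.0 ± 0.357. Of 9 partners of semaphorin cytoplasmic tails 9 were detected, led by GIPC1, SCRIB at 110 ± 2.04 TPM and ABL1 at 70.5 ± 1.30. Over all protein-coding genes the share detected was 71.8%, and the lists are short. Their median levels, on the log2(TPM + 0.1) scale, were 3.97 for plexins, −0.77 for the other receptors and partners, 4.89 for plexin effectors, 4.48 for the cytoskeletal genes, 3.30 for the proteases and 5.54 for the tail partners, against 1.66 for the semaphorins and 2.46 for all protein-coding genes.

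With each read taken as independent, the spread between libraries exceeded counting noise for most of the detected semaphorins, as it did for many genes. For each gene a chi-square test set its reads against the library sizes, and p-values were adjusted by the Benjamini-Hochberg method over the 21039 genes detected. It called 7 of the 8 detected semaphorins, against 46.1% of all detected genes. Among genes within 2-fold of the same mean count, the share called ran from 37.8% at the depth of SEMA6B to 59.1% at that of SEMA4A. Counting both mates of a read pair would inflate the statistic. Divided by 2 to allow for this, it called 2 of the 8, against 17.6% of all detected genes.

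SEMA6C varied most against its depth. Its coefficient of variation was 24.0% over the 3 libraries, where counting noise of independent reads alone gives 5.70% (chi-square adjusted p = 2.86e-07). With the chi-square statistic divided by 2 the adjusted p was 0.00204. Library 3 was the high one, and without it the adjusted p of SEMA6C was 0.876. SEMA4A, the most deeply counted, varied by 5.84%, against 1.84% from counting (adjusted p = 0.000309). For SEMA4C the values were 9.38% and 3.16% (adjusted p = 0.000703), and for SEMA4F 11.5% and 4.05% (adjusted p = 0.00159). The 2 genes deviated in opposite directions in library 3, as their TPM values above show.

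SEMA4B varied by 5.82% (adjusted p = 0.00348), SEMA4G by 16.8% (adjusted p = 0.0221) and SEMA7A by 14.6% (adjusted p = 0.0303). SEMA6B was not called, with 23.6% against 14.3% from counting (adjusted p = 0.114). SEMA5A and SEMA5B had too few reads to enter the test.

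Each of the 7 calls was lost when 1 library or another was left out. Fewer libraries then entered the test, and some calls were lost under more than 1 omission. These losses therefore do not trace a call to 1 library. Without library 3 the calls of SEMA4C, SEMA4F, SEMA4G and SEMA6C were lost, without library 2 those of SEMA4A, SEMA4B and SEMA7A, and without library 1 those of SEMA4B, SEMA4G and SEMA7A. That left 3, 4 and 4 calls, against 23.8%, 23.8% and 32.7% of all genes detected in the same pairs of libraries. Should the reads be paired and each mate counted on its own, the statistic would be up to 2 times too large. Several low counts were even, as for SEMA5A (6, 6 and 2 reads) and PLXNA4 (4, 12 and 12), though SEMA5B had 1 read in library 2. Whether mates were counted on their own was not tested. Divided by 2, the statistic called SEMA4A and SEMA6C only, against 17.6% of all detected genes.

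**Figure D5:**
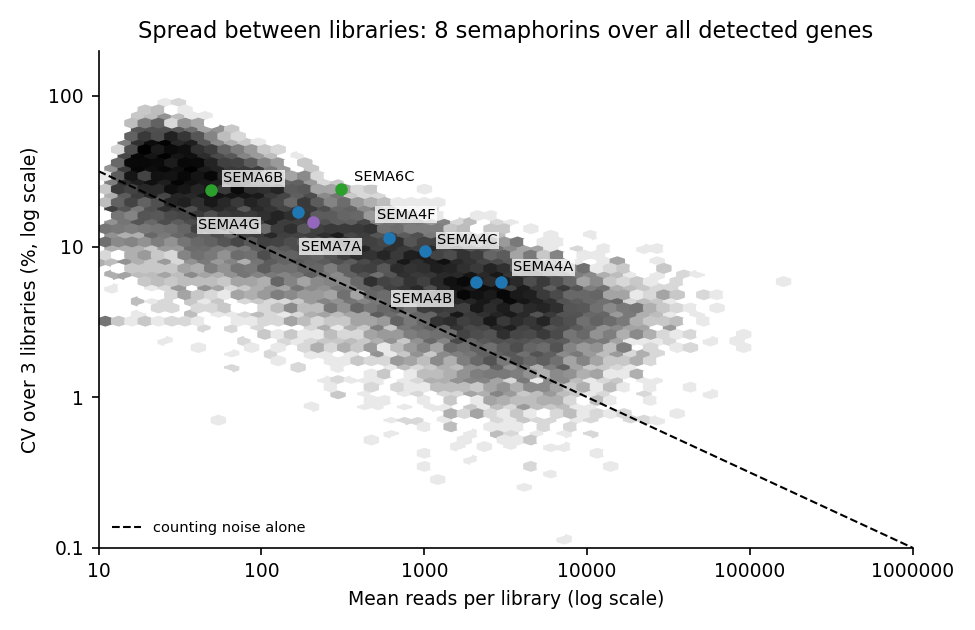
Coefficient of variation over 3 libraries against mean reads per library (both axes logarithmic) for the 8 detected semaphorins (colours as for the classes above) over the density of all 21039 detected genes (grey). The dashed line shows counting noise alone, with each read taken as independent. All 8 lie above the dashed line, and SEMA6C lies at 24.0%, farthest above it for its depth among the 8.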

How the data were processed

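Total RNA of 3 C4-2 libraries was measured after depletion of ribosomal RNA with a directional kit, per the labels' protocols. Reads were aligned to GRCh38 with tools that included STAR 2.7.0f, per the submitters' processing notes. The deposited values are raw read counts per gene from featureCounts 1.6.3 with the Ensembl 90 annotation, per the file headers, whose recorded options set neither strand nor pairing. Gene names came from GENCODE 44 by identifier (57532 of 58302 matched).

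TPM was computed from these counts and the exon lengths in the files. TMM library sizes came from edgeR 4.0.16 and alternative size factors from DESeq2 1.42.0 in R 4.3.3. The rest used Python 3.11.15, pandas 2.3.3, scipy 1.17.1 and matplotlib 3.10.9. The chi-square test had 2 degrees of freedom and a threshold of 0.05 after adjustment. Zero reads allow up to 3 reads, or 0.0631 CPM in the smallest library, and such limits cover counting error only. In the context lists the 3 highest detected genes are named, besides all semaphorins, plexins and paired receptors. Members, lists, pairs and tests were chosen with earlier results of these data known, and the promoter windows after the values were seen. The libraries differed from each other by more than sampling noise, with a chi-square per gene of 5.40 to 10.6 between pairs, so no pair was merged as 1 library deposited again. This does not show that they were separate cultures. No likeness of pattern was computed, since 3 replicates of 1 condition hold none.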

Additional observations from a re-analysis of the deposited data

How the results depend on the processing

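The number of semaphorins detected, 8, was 8 at 20 reads and without any 1 library, and 10 at 1 read in every library. The number at 1 TPM was 7, and 7 to 8 under the other scalings of TPM and without any 1 library; at 1 RPKM, a scale with lower values here, it was 5. The median level of 1.66 log2 units became 2.03 with a pseudocount of 1, 2.25 with TPM over nuclear protein-coding genes, 0.15 as RPKM and 2.20 over detected members only, each by the construction of the scale or the set, and was 1.57 to 1.75 with 1 library left out. The 4 of 11 pairs with the semaphorin above its receptor were 4 under every alternative run, and no pair's mean changed sign, but sizes moved. With a pseudocount of 1, SEMA4A minus PLXND1 was 3.79, SEMA6B minus PLXNA4 0.70, SEMA7A minus PLXNC1 0.93 and SEMA5A minus PLXNB3 −5.08 log2 units, and the lowest was SEMA4G minus PLXNB2, at −6.36. In CPM, which ignores gene length, SEMA7A minus PLXNC1 was 0.27, SEMA4A minus PLXNB1 0.09 with PLXNB1 higher in library 2, and the lowest was SEMA5B minus PLXNA1, at −9.54. Overlapping neighbours numbered 2, with 1 to 2 when 1 library was left out and 3 with shared bases left out of the length. Calls of variation between libraries numbered 7 with TMM, DESeq2 size factors or library totals, and 8 with no filter on low counts, where SEMA5B was added (adjusted p = 3.09e-05 by chi-square test). They numbered 2 with the statistic divided by 2 and 3 to 4 with 1 library left out, where fewer samples enter; the cause was not tested. No paired analysis was possible because the libraries form 1 group. Depth limits the class 5 genes and SEMA6B, which had 58 reads or fewer per library.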
